A study of Sus scrofa with 8 samples.

Results

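The potassium channel genes of the pig were described by their open chromatin in satellite cells, from which skeletal muscle regenerates. Members were the protein-coding genes whose symbols start with KCNA, KCNB, KCNC, KCND, KCNE, KCNH, KCNJ, KCNK, KCNMA, KCNMB, KCNN, KCNQ or KCNT. This gave 78 genes, of which 76 lie on chromosomes 1 to 18 and X and all 76 had at least 1 linked region. KCNT1 and KCNT2, which encode sodium-activated channels, lie on unplaced sequence in the gene table and were not analysed here. A region is a stretch where the peaks of any of the 8 libraries overlap by at least 1 bp, and it was linked to the protein-coding gene with the nearest start or end, no more than 50 kb away. The potassium channel genes held 599 of the 114950 linked regions, which belong to 17522 genes of the Sscrofa11.1 build, and the merged lists held 178498 regions in all.

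Accessibility was measured by ATAC-seq, in which a transposase cuts and tags open DNA. There were 4 groups of 2 libraries: CBP 60 h and WT 60 h, labelled as differentiating cells, and CBP 0 h and WT 0 h, labelled as proliferating cells. The protocol on every sample names SGC-CBP30, a bromodomain inhibitor that acts on CBP and EP300, which acetylate histones, at a dose written as 5 uM/ml, for 48 h in proliferation and for 60 h in differentiation. It does not say which groups received the compound, so the groups keep the names CBP and WT, and WT_60h and the like are the only genotypes given. The labels give muscle as the tissue and C3H as the cell line of pig samples, and no age, strain or number of animals. Nothing says that the replicates came from separate cultures, so their spread may be technical.

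Potassium channels let potassium leave or enter the cell along its gradient and so set the resting potential and the length of an electrical signal. Voltage-gated channels (Kv, KCNQ and KCNH) open on depolarisation, calcium-activated channels on a rise of calcium, and inward rectifiers (KCNJ) and leak channels (KCNK) hold the membrane near its resting value. In human myoblasts, hyperpolarisation through KCNH1 and then KCNJ2 is known to come before differentiation and fusion, whereas adult muscle fibres also rely on KCNJ11, the pore of the ATP-sensitive channel.

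The lists held 82696 to 88871 peaks in the 60 h libraries, against 121757 to 135528 in the 0 h libraries. The main time comparisons were therefore also made with the 82696 strongest peaks of each library. Peaks near an end, within 1 kb, were present at 7 or 8 of 8 satellite and myogenic marker genes in every library. They were also present at 4 or 5 of 6 fibroblast, 3 to 6 of 6 smooth muscle, 3 or 4 of 6 endothelial, 3 or 4 of 6 immune and 1 or 2 of 6 neural and Schwann marker genes. The smooth muscle count was 4 and 4 in CBP 0 h, against 6 and 6 in WT 0 h. At 60 h it was 4 and 4 in CBP, against 4 and 3 in WT. The part of other cell types in the results was not tested. In these bulk lists a peak missing because fewer cells carry it and one missing because it is weaker in each cell cannot be told apart.

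Potassium channel regions with a peak numbered 275 and 278 of 599 in CBP 60 h and 252 and 251 in WT 60 h, against 463 and 386 in CBP 0 h and 387 and 433 in WT 0 h. The 60 h libraries all lay below the 0 h libraries. With equal peak numbers the counts were 260 and 256 in CBP 60 h and 236 and 251 in WT 60 h, against 271 and 261 in CBP 0 h and 243 and 244 in WT 0 h. The times then overlapped. Compared with all linked regions at equal peak numbers, the share of potassium channel regions with a peak was lower in all 8 libraries. The difference was -2.15 and -2.53 percentage points in CBP 60 h and -7.20 and -4.32 in WT 60 h, against -2.84 and -3.4 in CBP 0 h and -7.08 and -7.31 in WT 0 h. CBP libraries thus lay closer to the share of all regions than WT libraries with no overlap at equal peak numbers. In the lists as deposited the labels overlapped, with -2.49 and -1.35 points in CBP 60 h and -6.35 and -4.32 in WT 60 h, against 2.62 and -1.15 in CBP 0 h and -5.21 and -1.5 in WT 0 h.

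**Figure D1:**
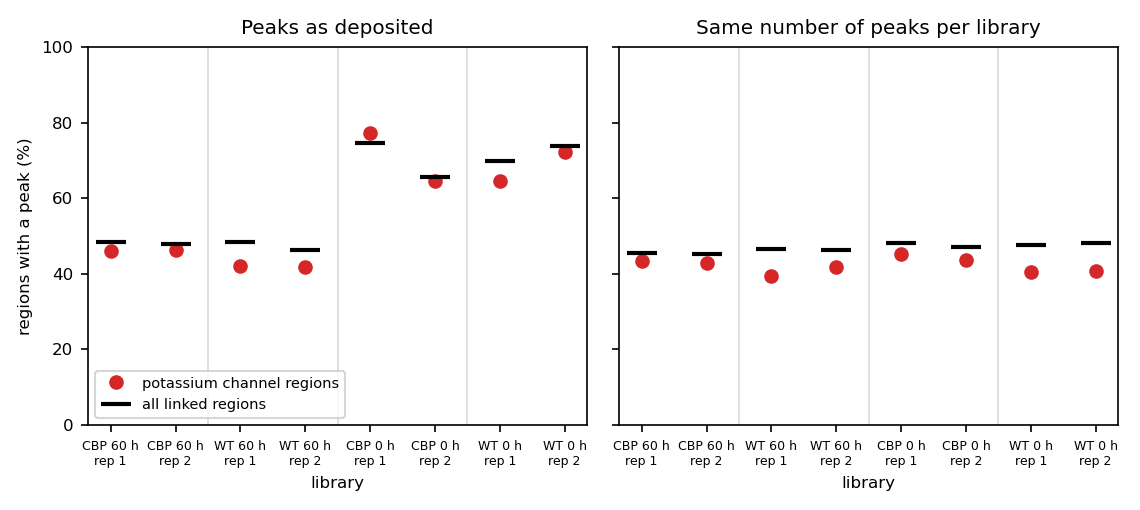
Share of linked regions with a peak (%) in each of the 8 libraries, for the 599 potassium channel regions and for all 114950 linked regions, in the lists as deposited and with 82696 peaks in every library. At equal peak numbers the potassium channel share is the lower of the pair in every library, with differences of -2.15 to -3.4 percentage points in CBP and -4.32 to -7.31 points in WT.

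A core of regions was shared by every library, since 152 of 599 (25.4%) had a peak in all 8, where 31.8% of all linked regions did. Regions with a peak in 1 library only numbered 130 (21.7%), against 21.4% of all linked regions. Regions with a peak in all 8 libraries were most frequent near gene ends. Within 1 kb of an end, 46 of the 90 regions (51.1%) were called in all 8, against 65.8% of the regions this near in all genes. Between 1 and 10 kb the share was 20.5% for potassium channels and 25.4% for all, and between 10 and 50 kb it was 21.0% and 24.9%. Of the 76 genes, 61 had a region within 1 kb of an end and 42 had one that was called in all 8 libraries.

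Among the genes with a known part in muscle, KCNH1, which encodes the first channel of the myoblast sequence, held a stable region over a gene end on chromosome 9 from 131959934 to 131961354. KCNJ2, the inward rectifier of the same sequence, had no region within 1 kb of an end, yet 4 of its 7 linked regions, 11798 to 49884 bp away, were called in all 8 libraries. A region inside KCNJ2, on chromosome 12 from 10361276 to 10363886, was also called in all 8 libraries. It lies 9317 bp from the nearest end of KCNJ2 but nearer to another gene, so it was not linked to KCNJ2. With 82696 peaks in each list, KCNJ2 had a count of 4 linked regions in every library. KCNN4, a calcium-activated channel of intermediate conductance, held 2 regions called in all 8 libraries. Of these, 1 lies 504 bp outside the gene on chromosome 6 from 50577873 to 50579512. KCNJ11 held 2 regions called in all 8 within 1 kb of its ends, on chromosome 2 from 41756782 to 41757694 and from 41759204 to 41759981. Counting its other region too, KCNJ11 had 2 and 3 regions called in CBP 60 h and 2 and 2 in WT 60 h, against 3 in each 0 h library. The groups overlapped for KCNJ11.

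Between 60 h and 0 h, a region was counted as closed when both 0 h libraries of a label and neither of its 60 h libraries had a peak, and as opened in the reverse case. In CBP, 94 of 599 potassium channel regions (15.7%) closed and 9 (1.5%) opened, where the shares of all linked regions were 14.5% and 1.36%. In WT, 86 regions (14.4%) closed and 2 (0.334%) opened, against 14.3% and 0.575% of all linked regions. The shares of potassium channel genes were close to these backgrounds. With equal peak numbers, 37 regions closed and 24 opened in CBP, where the backgrounds were 5.57% and 3.64%, and 18 closed and 19 opened in WT, where they were 3.89% and 2.62%. The surplus of closed over opened regions in WT was therefore no longer present at equal peak numbers. The smallest exact permutation p for 2 libraries against 2 is 0.333, so these counts have no test.

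Genes with more closed than opened regions numbered 42 in CBP (55.3%) and 47 in WT (61.8%), against 48.5% and 50.1% of all genes. All genes have fewer linked regions each (median 5, against 7 for potassium channel genes). These shares of genes were not computed at equal peak numbers. In CBP, KCNJ3, a G-protein-gated inward rectifier, closed 5 of 13, KCNAB2, a cytoplasmic beta subunit of Kv channels, 5 of 18, and KCNE4, a small membrane subunit that lowers the current of KCNQ1 and Kv channels, 5 of 23. In WT, KCNK1, a leak channel, closed the most, 6 of 16 regions, followed by KCNJ15, an inward rectifier of epithelia, with 4 of 14, and KCNQ1, the pore of the slow cardiac potassium current, with 4 of 16. In the equal lists KCNJ3 closed 3, KCNAB2 2 and KCNE4 2 in CBP, and the order in WT changed, with KCNK1 closing 2, KCNJ15 1 and KCNQ1 0, while KCNJ3 closed 3. Regions closed in both labels numbered 33, which is 35.1% of the 94 of CBP and 38.4% of the 86 of WT, against 37.9% and 38.3% over all linked regions.

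By family, the accessory subunits of Kv channels (KCNAB and KCNE) closed 17 of 84 regions in CBP (20.2%) and 15 in WT (17.9%). The KCNQ channels, which carry the M-current of neurons and the slow current of the heart, closed 16 of 70 (22.9%) in CBP and 11 (15.7%) in WT. The inward rectifiers closed 21 of 119 (17.6%) in each label and held 4 of the 9 opened regions of CBP and both of WT. At the other end, the KCNH channels closed 3 of 40 (7.5%) in CBP and 4 (10.0%) in WT, and the pore-forming Kv alpha subunits closed 12 of 105 (11.4%) in each label. The leak channels closed 13 of 110 in CBP and 14 in WT, and the calcium-activated channels closed 12 of 71 in CBP and 9 in WT. In the equal lists the KCNH channels had more opened than closed regions in both labels, 3 to 1 in CBP and 4 to 0 in WT. The same turn was seen for the Kv alpha subunits (5 to 4) in CBP and for the accessory subunits (3 to 2) and KCNQ channels (2 to 1) in WT, and closed exceeded opened in the other families. These families rest on 5 to 17 genes each, and the differences among them were not tested.

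**Figure D2:**
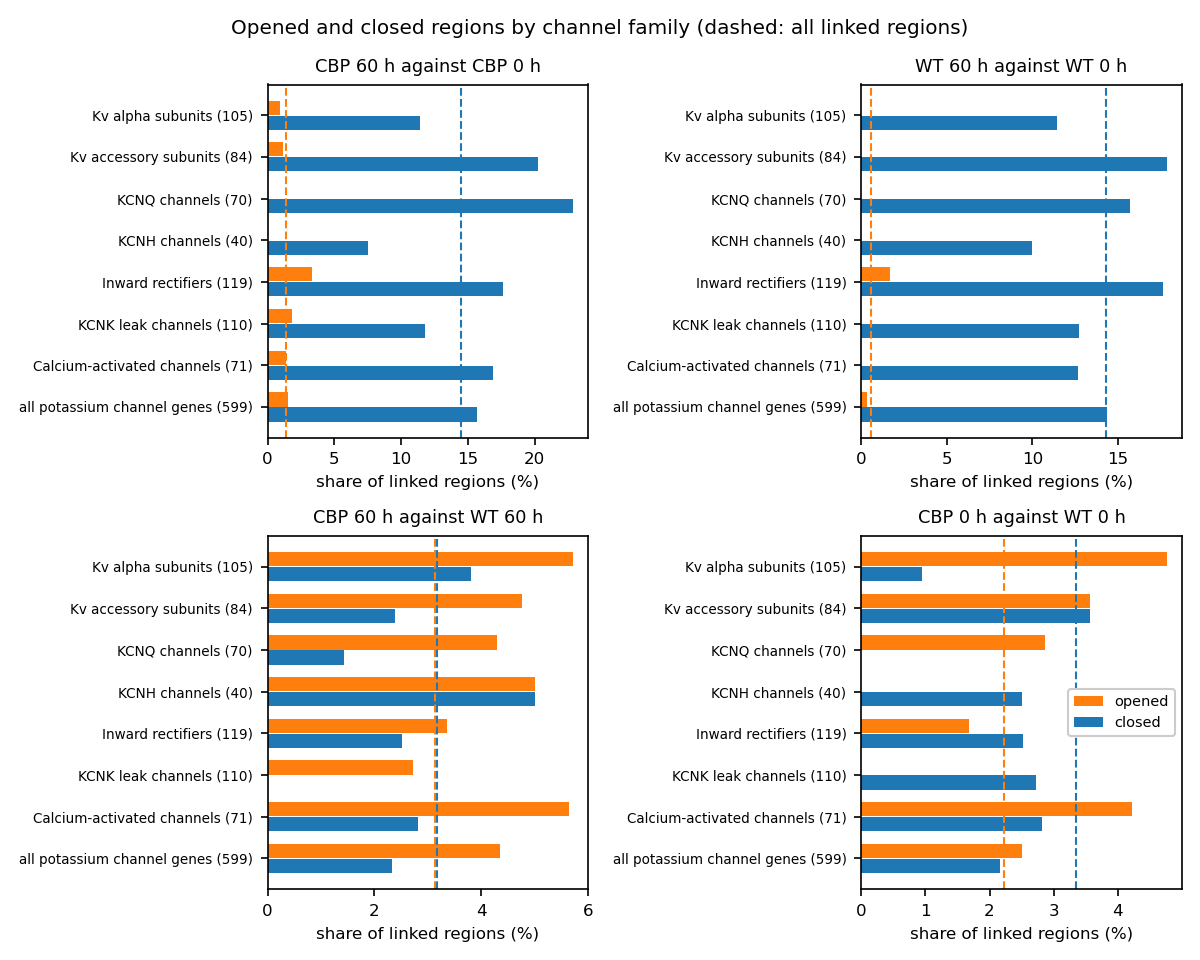
Share of linked regions that opened or closed (%, horizontal axis) in each family of potassium channel genes, with the number of regions in brackets, for the 4 comparisons in the lists as deposited. Dashed lines give the share of all linked regions. KCNQ channels have the longest closed bar in CBP 60 h against CBP 0 h (22.9%), and opened exceeds closed for the whole group of genes at 60 h between labels (4.34% against 2.34%).

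Counted per gene over both labels, 24 of the 76 potassium channel genes (31.6%) had fewer regions with a peak in every 60 h library than in every 0 h library, against 26.9% of all genes. In the opposite direction the count was 0 genes, against 0.0342% of all genes. Each of the 24 had a two-sided exact permutation p of 0.0286, the smallest that 4 libraries against 4 can give, and a Benjamini-Hochberg adjusted p over all genes of 0.106, so 0 passed an adjusted p of 0.05. Among the 24 were KCNA3, KCNA5 and KCND3 of the Kv alpha subunits, KCNAB1, KCNAB2, KCNE2, KCNE4 and KCNE5 of the accessory subunits, KCNQ3 and KCNQ5, KCNH7, the inward rectifiers KCNJ1, KCNJ2, KCNJ3, KCNJ5, KCNJ12 and KCNJ16, the leak channels KCNK1, KCNK3 and KCNK17, and KCNMA1, KCNMB1 and KCNN4 of the calcium-activated channels.

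KCNJ12, a strong inward rectifier of muscle, had 7 and 6 regions called in CBP 60 h and 6 and 5 in WT 60 h, against 15 and 14 in CBP 0 h and 12 and 11 in WT 0 h. That is 6.0 ± 0.816 at 60 h and 13 ± 1.83 at 0 h (SD, n = 4 each) of 19 regions. At equal peak numbers the means were 5.75 at 60 h and 5.0 at 0 h, and the exact permutation p was 0.657. KCNQ3, a subunit of the M-current, averaged 3.0 ± 0.816 at 60 h and 8.25 ± 1.26 at 0 h (SD, n = 4 each) as deposited, and 3.0 at 60 h and 2.75 at 0 h at equal peak numbers. For both genes the separation of the times was present only with the longer 0 h lists.

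Of the muscle genes, KCNJ2 had 4 of 7 regions called in each CBP 60 h and each WT 60 h library, against 6 and 5 in CBP 0 h and 5 and 7 in WT 0 h. KCNH1 had 3 and 4 of 11 in CBP 60 h and 4 and 5 in WT 60 h, against 9 and 5 in CBP 0 h and 8 and 7 in WT 0 h, an overlap at 5. KCNJ2 thus separated the times and KCNH1 did not, while at equal peak numbers both genes had the same mean at 60 h and 0 h. KCNA5 had 7 and 7 of 16 in CBP 60 h and 7 and 8 in WT 60 h, against 11 and 9 in CBP 0 h and 11 and 12 in WT 0 h. KCNMA1 had 8 and 7 of 16 in CBP 60 h and 6 and 6 in WT 60 h, against 12 and 10 in CBP 0 h and 10 and 11 in WT 0 h. These Kv and calcium-activated pores were lower in every 60 h library, and so was KCNN4, with 3 and 3 of 6 in CBP 60 h and 3 and 2 in WT 60 h, against 5 and 5 in CBP 0 h and 4 and 4 in WT 0 h. In the equal lists the times overlapped for all 3, with means at 60 h and 0 h of 7.0 and 8.0 for KCNA5, 6.5 and 6.0 for KCNMA1, and 2.75 and 2.75 for KCNN4.

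The times overlapped for KCNK2, with 4 and 3 of 11 in CBP 60 h and 3 and 5 in WT 60 h, against 4 and 4 in CBP 0 h and 7 and 8 in WT 0 h. At 0 h the KCNK2 counts were lower in both CBP libraries than in both WT libraries as deposited, but overlapped in the equal lists, with 4 and 4 in CBP 0 h and 5 and 4 in WT 0 h. KCNMB1 was higher in CBP 0 h than in WT 0 h, with 2 and 4 of 8 in CBP 60 h and 3 and 2 in WT 60 h, against all 8 in each CBP 0 h library and 5 and 6 in WT 0 h. The equal lists gave KCNMB1 4 and 6 in CBP 0 h, against 3 and 3 in WT 0 h. KCNE4, the member with the most linked regions, had 12 and 11 of 23 in CBP 60 h and 12 and 14 in WT 60 h, against 18 and 15 in CBP 0 h and 17 and 16 in WT 0 h. In the equal lists the order of its means turned, with 12 at 60 h and 10.25 at 0 h, but the times overlapped.

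At equal peak numbers, 3 genes still had fewer regions in every 60 h library, against 3.1% of all genes, and 2 had more, against 1.53%. KCNK1 had 7 and 7 regions called in CBP 60 h and 6 and 5 in WT 60 h, against 11 and 9 in CBP 0 h and 9 and 10 in WT 0 h. KCNJ3 had 5 and 6 in CBP 60 h and 4 and 5 in WT 60 h, against 7 and 7 in CBP 0 h and 8 and 8 in WT 0 h. KCNQ5, a subunit of the M-current that is also found in skeletal muscle, had 6 and 5 in CBP 60 h and 7 and 5 in WT 60 h, against 9 and 9 in CBP 0 h and 8 and 8 in WT 0 h. All 3 were lower in each of the 60 h libraries in both settings. The genes with more regions were KCNC4, a fast Kv channel of muscle, with 3 and 4 in CBP 60 h and 3 and 4 in WT 60 h, against 2 in each 0 h library, and KCNH2, the pore of the rapid cardiac current. KCNH2 had 6 and 6 in CBP 60 h and 5 and 6 in WT 60 h, against 4 and 4 in CBP 0 h and 4 and 3 in WT 0 h. In the lists as deposited both these genes had the lower mean at 60 h, with overlap. The exact permutation p of each of the 5 genes was again 0.0286, and the Benjamini-Hochberg adjusted p over all genes was 0.617.

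**Figure D3:**
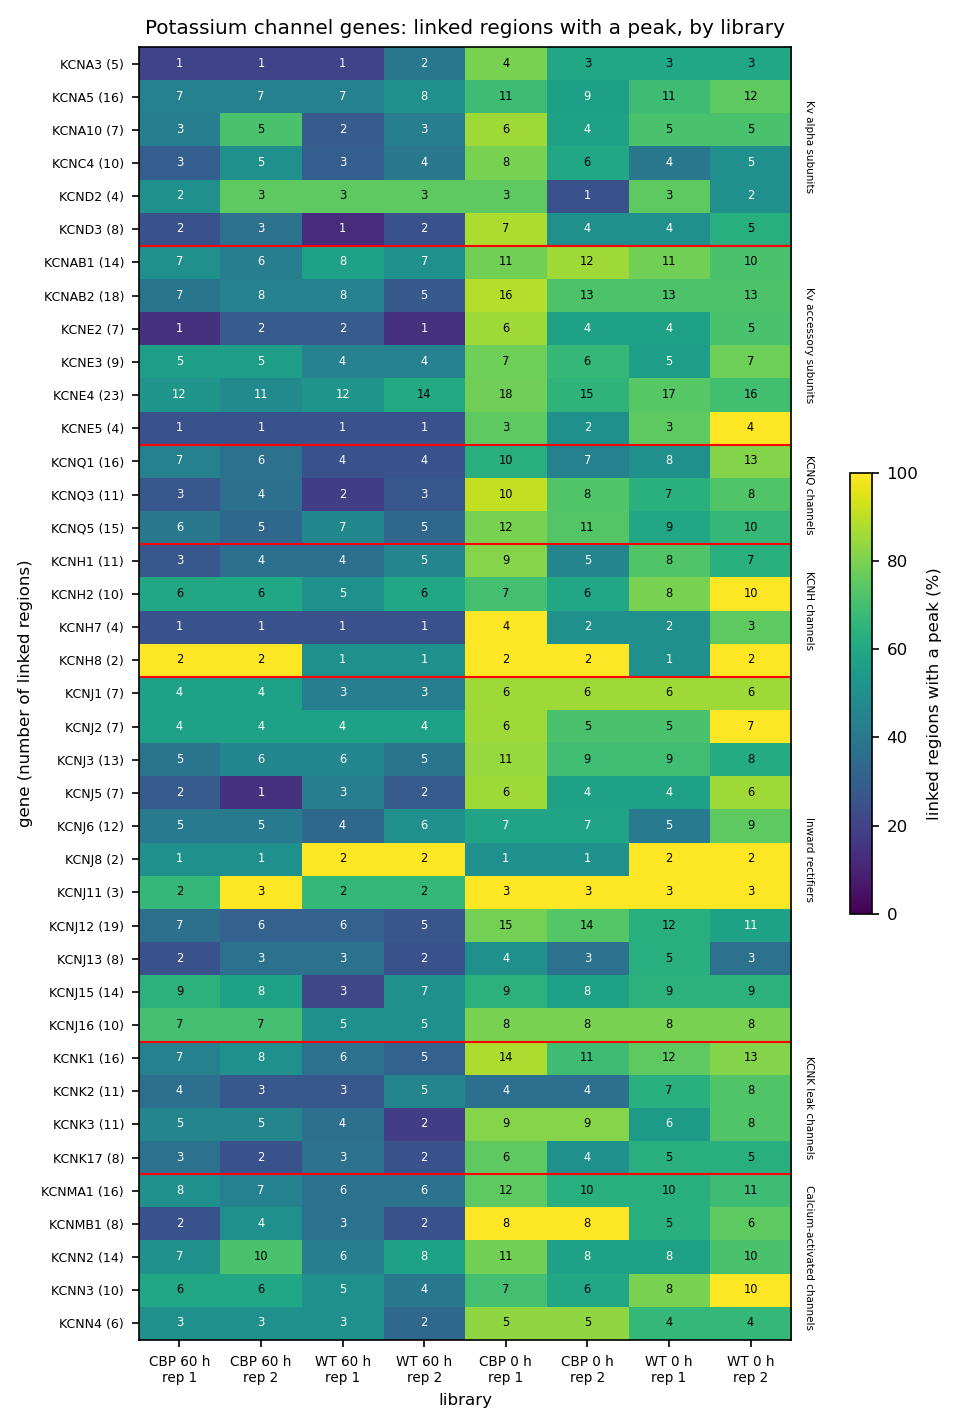
Linked regions with a peak for the potassium channel genes named in the text (vertical axis, total number of linked regions in brackets, red lines between families) in each library (horizontal axis), in the lists as deposited. Colours give the share of the gene's regions (%) and the printed digits their number; KCNK1 has 7, 8, 6 and 5 in the 60 h libraries and 14, 11, 12 and 13 in the 0 h libraries.

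Of single regions, 33 (5.51%) had a peak in all 4 libraries of 0 h and in none of 60 h, against 5.47% of all linked regions, and 0 showed the reverse, against 0.109%. At equal peak numbers these were 7, against 1.27%, and 3, against 0.687%. Of the 7, 4 were absent from the 60 h lists in both settings. They lie near KCNA5, a Kv channel of myoblasts and arteries, on chromosome 5 from 65462804 to 65463167, near KCNE4 on chromosome 15 from 124883178 to 124883825, near KCNJ3 on chromosome 15 from 62258281 to 62258757, and inside KCNQ5 on chromosome 1 from 52459411 to 52459695. The authors' −log10 q-values of the KCNJ3 region were 28.2 and 17.2 in CBP 0 h and 11.6 and 13.1 in WT 0 h, each within its own list. In the lists as deposited, KCNJ5, a cardiac G-protein-gated rectifier, had a region called in all 0 h and no 60 h libraries that covered a gene end. It lies on chromosome 9 from 55836544 to 55837823. KCNH1 had a region called likewise outside the gene, 1163 bp from the end, on chromosome 9 from 131958995 to 131959403. Neither the KCNJ5 nor the KCNH1 region kept this pattern at equal peak numbers. The strongest closed region of CBP lies 6035 bp outside KCNQ5 on chromosome 1 from 52428202 to 52429297, and was called weakly in 1 WT 60 h library. The strongest of WT lies 39751 bp outside KCND3, a transient outward Kv channel, on chromosome 4 from 108353529 to 108354936, and still had a peak in both CBP 60 h libraries.

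Opened regions were few. In CBP, 2 of the 9 opened regions lie side by side outside KCNJ15, on chromosome 13 from 201948743 to 201949501 and from 201949693 to 201950152. Peaks of both were present in both CBP 60 h libraries and 1 WT 60 h library and in no 0 h library. Both opened regions of WT lie at inward rectifiers, inside KCNJ15 on chromosome 13 from 201912883 to 201913853 and outside KCNJ12 on chromosome 12 from 61518109 to 61518705. Each of these was also called in 1 CBP 0 h library. KCNJ15 thus held both opened and closed regions. Its count was 9 and 8 in CBP 60 h and 3 and 7 in WT 60 h, against 9 and 8 in CBP 0 h and 9 and 9 in WT 0 h. In the equal lists its mean was 6.75 at 60 h and 5.0 at 0 h, with overlap.

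Between CBP and WT at 60 h, 26 potassium channel regions (4.34%) opened and 14 (2.34%) closed, where the shares of all linked regions were 3.14% and 3.17%. Here opened means a peak in both CBP libraries and in neither WT library. Genes with more opened than closed regions numbered 17 (22.4%) and those with more closed 8 (10.5%), against 13.4% and 13.8% of all genes. With equal peak numbers 21 opened and 12 closed, against 2.77% and 3.45% of all linked regions. Opened outnumbered closed by 6 to 4 in Kv alpha subunits, by 4 to 2 in accessory subunits, by 3 to 1 in KCNQ channels, by 4 to 3 in inward rectifiers, by 3 to 0 in leak channels and by 4 to 2 in calcium-activated channels. They were level at 2 and 2 in KCNH channels. With equal lists opened exceeded closed in each family except the Kv alpha subunits, which had 4 of each. With any 1 library left out, its partner calls the group alone, so the counts contain the 26 and 14 regions by construction and are no separate support. Opened and closed then numbered 64 and 29 without CBP 60 h replicate 1 and 52 and 23 without CBP 60 h replicate 2. They numbered 44 and 39 without WT 60 h replicate 1 and 45 and 40 without WT 60 h replicate 2. Shares of all linked regions were not computed for these settings.

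Some of these differences were peaks that one label lacked at 60 h but that both labels had at 0 h. Of the 26 opened regions, 9 (34.6%) were called in all 4 libraries of 0 h, against 45.2% over all linked regions opened in this comparison, and 4 (15.4%) were called in no 0 h library, against 19.2%. Both shares were below those of all linked regions. The 9 lie at KCNA10, KCNAB1, KCNAB2, KCND3, KCNE3, KCNH2, KCNJ15, KCNN3 and KCNQ1. The 4 lie inside KCND2, a transient outward Kv channel, on chromosome 18 from 26169767 to 26170382, inside KCNJ6, a G-protein-gated rectifier of neurons, on chromosome 13 from 201252927 to 201253500, inside KCNJ16 on chromosome 12 from 10411835 to 10412234, and outside KCNN2, a small-conductance calcium-activated channel, on chromosome 2 from 118914464 to 118914886. Their authors' −log10 q-values in CBP 60 h were 4.71 and 6.08, 3.81 and 8.74, 2.64 and 2.39, and 2.02 and 3.76 in that order.

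Of the 14 closed regions, 7 were called in every other library, including both WT 60 h and all 4 of 0 h, and 0 in no 0 h library. Over all linked regions closed in this comparison, 65.9% were called in all 4 libraries of 0 h, above the 50% here, and 6.09% in none. The 7 lie at KCNA5, KCNA10, KCNH1, KCNJ5, KCNJ13, an inward rectifier of epithelia, and KCNE4, which held 2 of them. The strongest, by the authors' −log10 q in its weaker WT 60 h library, lies 30505 bp outside KCNJ13 on chromosome 15 from 133280135 to 133281432. That region had −log10 q-values of 18.1 and 11.9 in WT 60 h, 24.7 and 17.3 in CBP 0 h and 31.2 and 27.7 in WT 0 h, and no peak in either CBP 60 h library. The KCNH1 region lies outside the gene on chromosome 9 from 131927055 to 131927785. The strongest opened region lies inside KCNH8, a voltage-gated channel related to KCNH1, on chromosome 13 from 6521815 to 6522406.

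Between CBP and WT at 0 h, 15 potassium channel regions (2.5%) opened and 13 (2.17%) closed, against 2.23% and 3.35% of all linked regions. With equal peak numbers, 18 opened and 5 closed, where the backgrounds were 1.85% and 2.35%. The order of opened and closed depended on the library left out, and each count contains the 15 and 13 regions by construction. Opened and closed numbered 34 and 41 without CBP 0 h replicate 1 and 25 and 44 without WT 0 h replicate 1. They numbered 69 and 21 without CBP 0 h replicate 2 and 43 and 32 without WT 0 h replicate 2. Shares of all linked regions were not computed for these settings. The lists held 135528 and 121757 peaks in CBP 0 h, against 127394 and 134181 in WT 0 h. The part of list length in this order was not tested. Opened exceeded closed by 5 to 1 in the Kv alpha subunits, by 2 to 0 in KCNQ channels and by 3 to 2 in calcium-activated channels. Closed exceeded opened by 3 to 0 in the leak channels, by 3 to 2 in inward rectifiers and by 1 to 0 in KCNH channels, and the accessory subunits had 3 of each. At equal peak numbers opened exceeded closed in each family, by 6 to 1 in the inward rectifiers, except the leak channels, with 0 opened and 1 closed. At KCNN4 a region over a gene end, on chromosome 6 from 50579797 to 50580248, was called in both CBP 0 h libraries and in no other library. The strongest opened region lies outside KCNAB2 on chromosome 6 from 66912929 to 66913366 and was likewise called in both CBP 0 h libraries and no other. The strongest closed region lies 49140 bp outside KCNK2, a leak channel that opens on stretch, on chromosome 9 from 128379749 to 128380092, and had a peak again in both CBP 60 h libraries.

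Regions that followed the label at both times numbered 4. Near KCNMB1, the beta subunit of the calcium-activated channel of smooth muscle, 1 region had a peak in all 4 CBP libraries and in no WT library, on chromosome 16 from 53579654 to 53580063. Another did so inside KCNQ5, on chromosome 1 from 52903990 to 52904431, with authors' −log10 q-values of 5.04 and 3.16 in CBP 60 h and 10.6 and 7.91 in CBP 0 h. These 2 regions are 0.334% of the potassium channel regions, against 0.142% of all linked regions. At equal peak numbers there were 2, against 0.197%, of which the KCNQ5 region was 1 and the region inside KCNH8 named above the other, while the KCNMB1 region was no longer among them. In the reverse direction, 1 region near KCNJ8, the pore of the ATP-sensitive channel of vessels, on chromosome 5 from 51749724 to 51750221, and 1 near KCNN3, a small-conductance calcium-activated channel, on chromosome 4 from 94890084 to 94890546, had a peak in all 4 WT libraries and in no CBP library. The background of these was 0.231%, and at equal peak numbers there were 0, against a background of 0.374%.

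**Figure D4:**
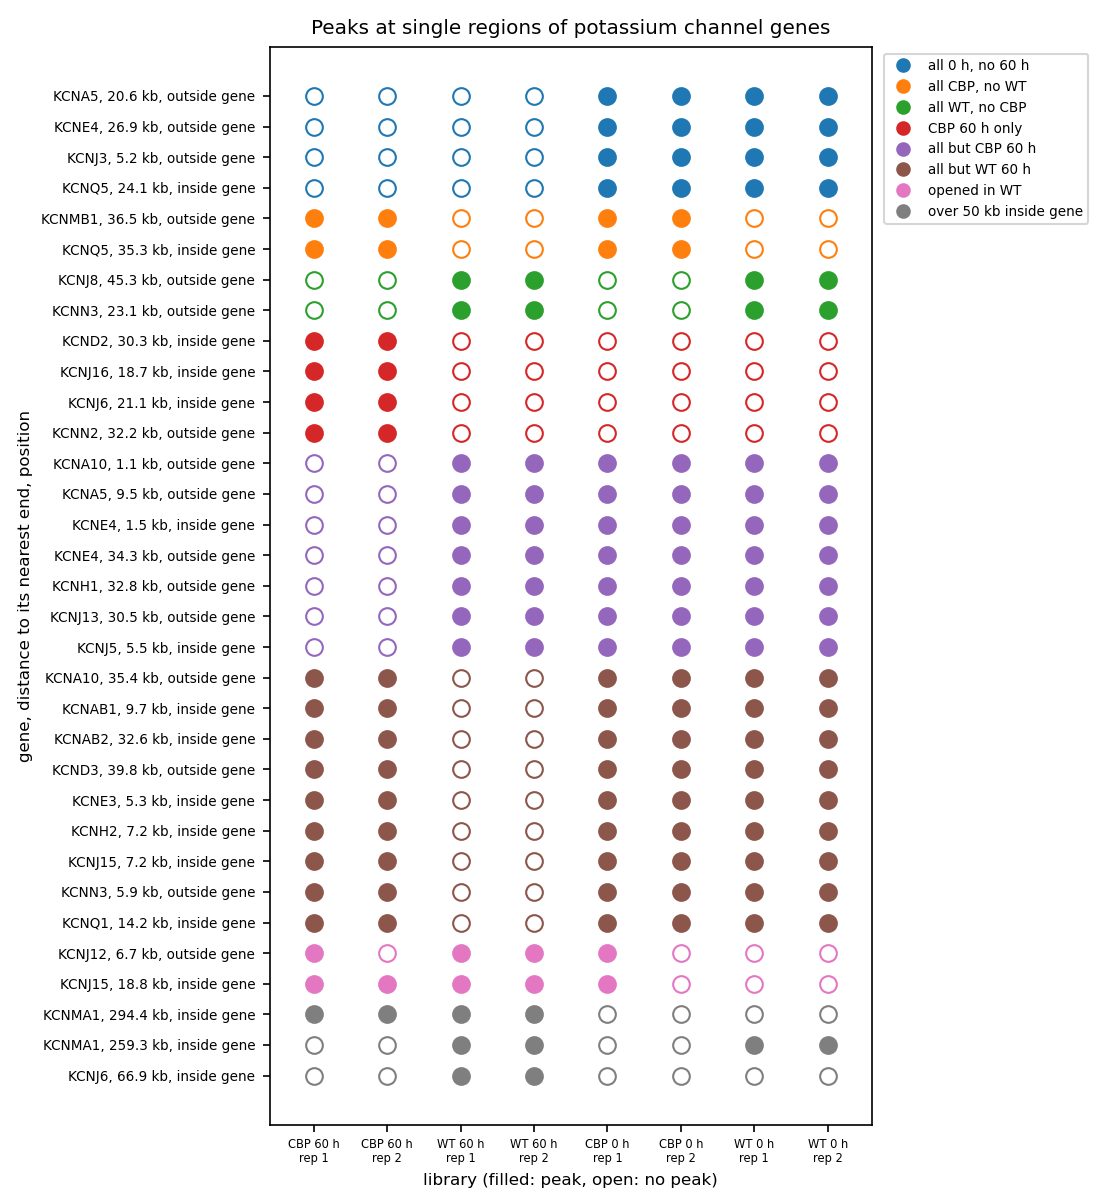
Peak (filled) or no peak (open) in each library at single regions of potassium channel genes, named by gene and distance to the nearest gene end, and coloured by pattern. KCNMB1 and KCNQ5 regions follow the CBP label at both times, KCNJ8 and KCNN3 regions the WT label, 7 regions lack a peak in CBP 60 h alone and 9 in WT 60 h alone.

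Long channel genes also hold regions deep inside them that are over 50 kb from an end or nearer to another gene, which were added after the linked regions had been seen. There were 334 such regions in 23 genes, of which 54 closed and 6 opened in CBP and 66 closed and 5 opened in WT between 60 h and 0 h. With equal lists 24 closed and 16 opened in CBP, and 21 closed and 8 opened in WT. Between CBP and WT, 8 opened and 9 closed at 60 h, and 8 opened and 14 closed at 0 h. With equal lists these were 7 opened and 11 closed at 60 h, and 7 opened and 13 closed at 0 h. The same counts over deep regions of all genes were not made, so nothing is read from these numbers about the channels. KCNMA1, the large-conductance calcium-activated channel, held 76 of them. It had 37 and 31 with a peak in CBP 60 h and 30 and 27 in WT 60 h, against 48 and 43 in CBP 0 h and 54 and 51 in WT 0 h. All 60 h libraries lay below the 0 h libraries in these lists as deposited, which were longer at 0 h. Counts per library of these KCNMA1 regions were not made at equal peak numbers, so nothing is read from the separation.

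Inside KCNMA1, 1 region on chromosome 14 from 79639792 to 79640668 had a peak in all 4 libraries of 60 h and in no 0 h library, with authors' −log10 q-values of 10.0 and 15.4 in CBP 60 h and 6.02 and 5.93 in WT 60 h. It was the only such region among the 334, and 0 of the 599 linked regions showed this pattern in the lists as deposited. A second, from 79845880 to 79847039, had a peak in all WT libraries and no CBP library, with −log10 q-values of 16.0 and 18.2 in WT 60 h and 14.9 and 14.7 in WT 0 h. Inside KCNJ6, a region on chromosome 13 from 201298658 to 201299327 was called in both WT 60 h libraries and no other. It lies 66855 bp from the nearest end of KCNJ6, outside the range of the link.

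**Figure D5:**
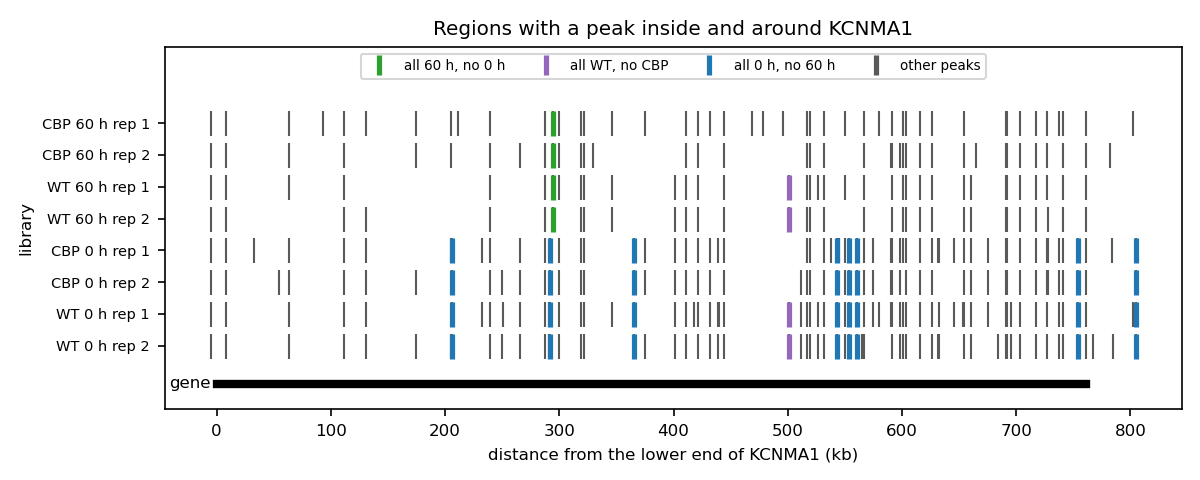
Regions with a peak in each library along KCNMA1 (black bar) and its surroundings, as distance from the lower end of the gene (kb). The green region has a peak in all 4 libraries of 60 h and in no 0 h library, and the violet one in all WT and no CBP library; the blue regions have a peak in all 0 h and no 60 h library.

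Genes that work with potassium channels were described from lists of their symbols. The silent Kv subunits, Kv-binding calcium sensors and ATP-sensitive channel partners, 19 genes with 165 regions, closed 27 (16.4%) and opened 6 (3.64%) in CBP between 60 h and 0 h, and closed 31 (18.8%) and opened 2 (1.21%) in WT. Over all linked regions these shares were 14.5% and 1.36% in CBP and 14.3% and 0.575% in WT. The equal lists turned the order in CBP, with 10 closed and 13 opened, where the shares of all linked regions were 5.57% and 3.64%. They left 7 closed and 6 opened in WT, where the shares of all were 3.89% and 2.62%. Between CBP and WT, 12 opened (7.27%) and 9 closed (5.45%) at 60 h, against 3.14% and 3.17% of all linked regions, and 7 opened (4.24%) and 8 closed (4.85%) at 0 h, against 2.23% and 3.35%. With equal lists these were 10 opened and 9 closed at 60 h, where the shares of all linked regions were 2.77% and 3.45%. At 0 h they were 1 opened and 4 closed, where the shares of all were 1.85% and 2.35%.

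The sodium, calcium and chloride channels of muscle, 34 of 36 genes with 318 regions, closed 43 (13.5%) and opened 5 (1.57%) in CBP and closed 50 (15.7%) and opened 1 (0.314%) in WT, close to the shares of all linked regions. In the equal lists 14 closed and 16 opened in CBP, where the shares of all linked regions were 5.57% and 3.64%. In WT 9 closed and 7 opened, where they were 3.89% and 2.62%. Between CBP and WT, 10 opened (3.14%) and 5 closed (1.57%) at 60 h, against 3.14% and 3.17% of all linked regions. At 0 h, 9 opened (2.83%) and 16 closed (5.03%), against 2.23% and 3.35%. With equal lists 9 opened and 9 closed at 60 h, where the shares of all were 2.77% and 3.45%. At 0 h, 5 opened and 9 closed, where they were 1.85% and 2.35%. Fewer regions in every 60 h library than in every 0 h library were counted in 8 of the 19 partner genes and in 10 of these 34, against 26.9% of all genes, and more in 0 of either, against 0.0342%.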

How the data were processed

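Peak lists of 8 ATAC-seq libraries were analysed, 1 list for each library. The submitters' processing notes name Trimmomatic and MACS2 2.1.0, and Sscrofa11.1 as the build; aligner and duplicate handling are not given in the sources. Deposited with each peak are the authors' score, its fold enrichment, and a p-value and q-value as −log10. The −log10 p-values ranked the peaks of a list and the −log10 q-values filtered them. The strongest region of a comparison was the one with the highest −log10 q in the weaker library of the group that called it. This choice compared values across lists, which are not on one scale. Read depth is unknown, so no interval is given.

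Overlapping peaks (1 bp, chromosomes 1 to 18 and X) were joined over all libraries, and a library calls a region that any of its peaks touches. The RefSeq gene table used for links (Sscrofa11.1) gives no strand, so both gene ends were used. The number of called regions per gene was compared between 60 h (4 libraries) and 0 h (4 libraries) with a two-sided exact permutation test and Benjamini-Hochberg adjustment over 17522 genes. The code was tested on simulated peak lists. Equal peak numbers, a −log10 q of at least 5, a coverage of 50%, a 10 kb link, each library left out and a replicate block were tried. The members and lists were chosen with earlier results of these data known. Named genes were those with the most closed or opened regions, a set for muscle roles, those with the most regions and those with an all-or-none region; others were chosen after their values were seen. Promoter windows and the planned motif search were not analysed here. Single values of some member genes are not reported here.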

Additional observations from a re-analysis of the deposited data

Results flagged for a closer look

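KCNN3, a small-conductance calcium-activated channel, differed between labels in opposite directions at the 2 times in the lists as deposited. It had 6 and 6 called regions in CBP 60 h, against 5 and 4 in WT 60 h, and 7 and 6 in CBP 0 h, against 8 and 10 in WT 0 h. The mean difference of CBP minus WT at 0 h was -2.5 regions. The difference between the times was not tested. With equal peak numbers the opposite direction was absent, with 5 and 5 in CBP 60 h, against 4 and 4 in WT 60 h, and 6 and 5 in CBP 0 h, against 6 and 5 in WT 0 h.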

How the results depend on the processing

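With equal peak numbers, closed regions numbered 37 in CBP and 18 in WT between the times and 5 between labels at 0 h, opened regions 24 in CBP and 19 in WT, and genes with fewer or more regions at 60 h 3 and 2. With links within 10 kb, 266 potassium channel regions were left. Of these, 41 (15.4%) closed and 2 (0.752%) opened in CBP, against 12.9% and 0.984% of all regions linked so. In WT, 36 (13.5%) closed and 1 (0.376%) opened, against 12.7% and 0.453%. Between labels, 5 (1.88%) closed and 10 (3.76%) opened at 60 h, against 2.84% and 2.38%. At 0 h these were 4 (1.5%) and 5 (1.88%), against 2.94% and 1.79%. Genes with fewer regions numbered 14, and their share over all genes was not computed. With a −log10 q of at least 5, WT opened 0 regions, against 0.328% of all linked regions. CBP against WT at 60 h then closed 8 (1.34%) and opened 17 (2.84%), against 2.67% and 2.34%. At a coverage of 50%, CBP opened 14 (2.34%) and WT 0, against 1.47% and 0.621%. The cause was not tested.

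Leaving out 1 library lets the other call its group alone, so region counts grow by construction. Over the libraries left out, closed and opened regions ranged over 120 to 170 and 10 to 22 in CBP, 117 to 156 and 5 to 18 in WT, and, between labels, 23 to 40 and 44 to 64 at 60 h and 21 to 44 and 25 to 69 at 0 h. Genes with fewer regions at 60 h ranged from 24 to 32 and genes with more stayed at 0. With 1 library left out the rule for genes is easier to meet, so these counts contain the 24 genes by construction and are no separate support. Shares over all linked regions and all genes were not computed for these settings. Same-numbered libraries did not deviate together (r between -0.110 and 0.0683), so the numbers do not pair them. A replicate block gave 35 genes with fewer and 0 with more, and the shares over all genes were not computed for it. A crossed replicate block at 0 h, chosen after seeing the data, gives 13 closed and 15 opened by construction. Peak lists without read totals limit each call to presence or absence.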
